A study of Mus musculus with 2 samples.

Results

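Cytosolic ribosomal protein genes were examined in DNase-seq data from female B6CASTF1/J mice, an F1 hybrid of inbred strains. The tissue was the left cerebral cortex at 4 days of age. The members are the autosomal protein-coding genes of the mouse annotation whose symbols start with Rpl or Rps followed by a number, an a or a p, without the Rps6k kinases and names containing -ps. This gave 82 of 20720 autosomal protein-coding genes. Of these, 73 encode canonical ribosomal proteins, 40 of the large subunit, 3 of its stalk and 30 of the small subunit. The other 9 are 8 paralogs or retrogenes (Rpl3l, Rpl7l1, Rpl10l, Rpl22l1, Rpl36al, Rpl39l, Rps27l and Rps27rt) and Rps19bp1, which encodes a binding protein of Rps19 and not a ribosomal protein. The data are 2 libraries of 1 group with no treatment, called replicate 1 and replicate 2, which the labels number as separate biological replicates from separately numbered females under a shared donor entry. Every value below describes these 2 libraries, and no condition was compared.

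Ribosomal proteins are made in near-equal amounts to build the 2 ribosomal subunits, and their genes are active in nearly every cell. Their mRNAs are known for a 5′ terminal oligopyrimidine start, a run of C and T that begins at the cap and through which the mTOR pathway sets their translation. Many of these genes also carry small nucleolar RNAs (snoRNAs) in their introns. DNase I cuts chromatin where nucleosomes are displaced, so an active promoter appears as a hypersensitive site, and a footprint is a short stretch inside it that is cut less than its surroundings.

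The authors called 59355 hypersensitive sites in replicate 1 and 46566 in replicate 2 in the stricter of their lists, with 153911 footprints in replicate 1 and 224652 in replicate 2. The sequencing depth is not given in the sources used here, and the scaling of the authors' signal value is not stated, so levels were ranked within each library and not compared between them. Of 8 markers of cortical projection neurons, 4, among them Tbr1 and Fezf2, had a promoter call in both libraries, and the other 4 had one in replicate 2 only. A call in both was also found at 3 of 4 markers of the oligodendrocyte lineage, 1 of 5 of interneurons and 1 of 4 of astrocytes. None of 4 microglial, 3 endothelial, 4 other-tissue and 4 subcortical or hindbrain markers had a call in both, although Cdh5 and Hoxa2 had one in replicate 1. In bulk tissue a site open in fewer cells and a site cut less in each cell cannot be told apart.

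The promoters of nearly all ribosomal protein genes were called as open. A call lay within 1 kb of an annotated transcription start site (TSS) in both libraries for 78 of 82 members, against 57.2% of all autosomal protein-coding genes. The share of members was 95.1%. An exact 95% binomial interval of 88.0% to 98.7% covers counting error only. It treats the members as independent draws, which genes of a family chosen by name are not. In replicate 1 alone 78 members had a call, against 58.3% of all genes, and in replicate 2 alone 78, against 61.3%. They were the same 78 members, so none was called in 1 library only. All 73 canonical members were among them, as were 5 of the other 9, Rpl36al, Rpl22l1, Rps27l, Rpl7l1 and Rps19bp1.

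CpG-rich promoters are open in most tissues, and the members' promoters were CpG-rich. The ratio of observed to expected CpG within 500 bp of the TSS had a median of 0.821 in called members, with quartiles of 0.754 and 0.884, against 0.744 in all called genes, with quartiles of 0.616 and 0.851. Among the 79 members with a ratio of 0.6 or more, 78 were called in both libraries (98.7%), against 91.1% of all autosomal genes with such a ratio. The members thus stood closer to CpG-rich genes than to all genes.

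The 4 members with no call were all copies of other ribosomal protein genes. They are Rpl10l, a retrogene known for standing in for Rpl10 in male germ cells, Rpl39l, which is expressed in male germ cells, Rpl3l, which is expressed in striated muscle, and Rps27rt, a retrogene of Rps27. None of them had a call in the lenient lists, and none had a single base within 1 kb of its TSS with a listed false discovery rate of cutting under 0.05 in either library. Called members had between 391 and 1686 such bases in replicate 1, with a median of 920, and between 526 and 1721 in replicate 2, with a median of 999. The CpG ratios of the uncalled copies were 0.722 at Rpl10l, 0.55 at Rpl39l, 0.408 at Rps27rt and 0.172 at Rpl3l, so Rpl10l alone lay above 0.6. How reads that map to near-identical copies were handled is not given in the sources used here, so a missing call at a retrogene is uncertain to that extent.

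The strength of the promoter calls varied among the members, but few of them were weak. The authors' signal value of the strongest promoter call had a median of 1.98 in replicate 1 over the 78 called members, with a range of 1.23 to 4.49, against a median of 1.61 over all 11842 genes called in both libraries. In replicate 2 the members' median was 6.39, with a range of 2.20 to 15.5, against 4.47 over all called genes. As percentiles among the called promoters of a library, the members' medians were 69.8 in replicate 1 and 72.2 in replicate 2, against 50.8 and 53.4 for all genes called in both. Both libraries thus placed the typical member above the typical called promoter. In both libraries 58 of 78 members (74.4%) lay above the median of called promoters, against 46.2% of all called genes. Above the percentile 75 in both libraries lay 28 members (35.9%), against 20% of all called genes. Below the percentile 25 lay only Rpl6, in replicate 2. Genes with CpG ratios of 0.6 or more had medians of 1.73 and 5.08, below the members' medians in each library.

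**Figure D1:**
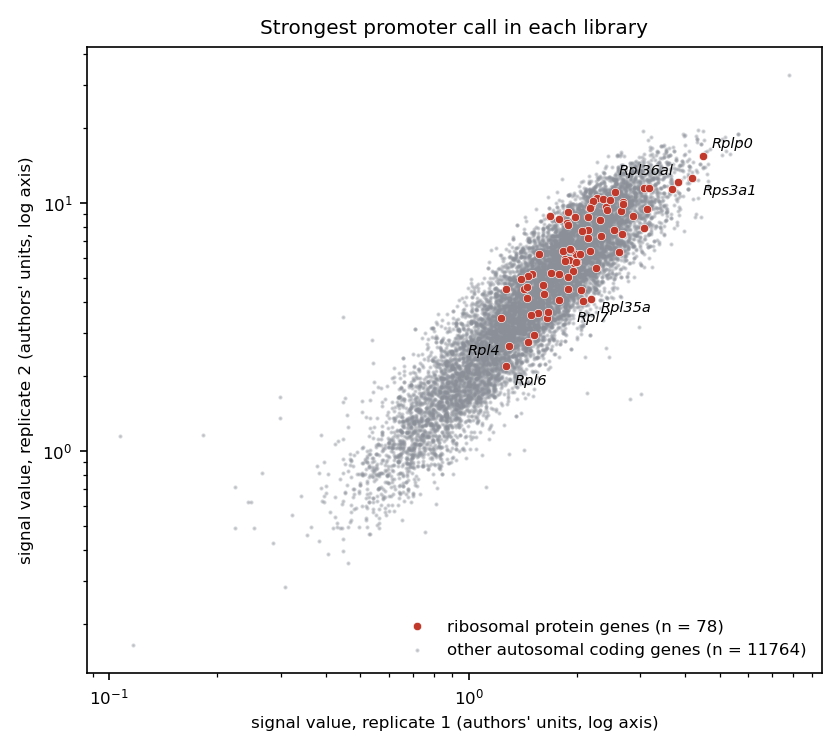
Signal value of the strongest promoter call of each gene in replicate 1 (horizontal) and replicate 2 (vertical), both on log axes in the authors' units. The 78 ribosomal protein genes (red) lie among 11764 other autosomal coding genes called in both libraries (grey) and run from Rpl6 at 1.27 and 2.20 to Rplp0 at 4.49 and 15.5, with 58 of them above the median of called promoters in both libraries.

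The members with the highest mean percentile included Rplp0, Rps3a1, Rpl7a, Rpl37 and Rpl36al. Rplp0, the stalk protein that anchors Rplp1 and Rplp2 to the large subunit, had a signal value of 4.49 in replicate 1 and 15.5 in replicate 2, the percentiles 99.8 and 99.5. Rps3a1, a small-subunit protein, had 4.19 and 12.6, and Rpl7a, a large-subunit protein, had 3.82 and 12.2. Rpl37, a large-subunit protein, had 3.17 and 11.5, and Rpl36al, the autosomal paralog of the X-linked Rpl36a, had 3.08 and 11.5. All 5 lay above the percentile 95 in both libraries.

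The promoters of these 5 genes are shown as the reference sequence from 120 bases before to 20 bases after the TSS, with Rpl6, the lowest of the called members, for contrast. Capitals mark the bases inside footprints that overlapped between the libraries.
Rplp0 (chr5:115559347-115559486, plus strand): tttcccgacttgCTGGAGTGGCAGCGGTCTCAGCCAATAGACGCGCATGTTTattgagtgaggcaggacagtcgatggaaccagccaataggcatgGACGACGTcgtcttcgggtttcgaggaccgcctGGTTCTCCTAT
Rps3a1 (chr3:86142683-86142822, minus strand): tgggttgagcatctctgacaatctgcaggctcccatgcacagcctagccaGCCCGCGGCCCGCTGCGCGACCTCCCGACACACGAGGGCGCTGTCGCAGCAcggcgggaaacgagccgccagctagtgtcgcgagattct
Rpl7a (chr2:26910644-26910783, plus strand): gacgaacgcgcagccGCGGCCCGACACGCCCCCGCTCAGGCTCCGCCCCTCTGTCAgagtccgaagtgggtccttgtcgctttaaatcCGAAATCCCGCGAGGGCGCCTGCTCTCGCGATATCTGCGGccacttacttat
Rpl37 (chr15:5116525-5116664, plus strand): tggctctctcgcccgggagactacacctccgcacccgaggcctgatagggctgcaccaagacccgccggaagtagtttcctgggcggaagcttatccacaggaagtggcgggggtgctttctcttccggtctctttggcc
Rpl36al (chr12:69184064-69184203, minus strand): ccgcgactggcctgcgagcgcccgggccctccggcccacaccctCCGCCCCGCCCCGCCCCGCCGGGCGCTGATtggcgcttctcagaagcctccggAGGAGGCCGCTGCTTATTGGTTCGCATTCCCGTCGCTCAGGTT
Rpl6 (chr5:121204361-121204500, plus strand): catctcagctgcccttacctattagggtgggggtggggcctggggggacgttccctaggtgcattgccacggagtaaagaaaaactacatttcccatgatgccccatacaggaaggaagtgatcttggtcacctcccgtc
At Rplp0 the widest shared footprint lay from 108 to 69 bp upstream of the TSS, and at Rps3a1 from 70 to 20 bp upstream. At Rpl7a one lay from 105 to 65 bp upstream and another crossed the TSS, from 32 bp upstream to 8 bp downstream. Rpl37 and Rpl6 had no shared footprint in this window. The calls of Rpl37 were centred 304.5 bp upstream of the TSS in replicate 1 and 174.5 bp upstream in replicate 2, and those of Rpl6 239.5 and 169.5 bp downstream.

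The lowest called members included Rpl6, Rpl4, Rps19bp1, Rps26 and Rpl7l1. Rpl6, a large-subunit protein, had signal values of 1.27 and 2.20, the percentiles 32.6 and 24.3. Rpl4, a large-subunit protein that lines the exit tunnel of the nascent chain, had 1.30 and 2.64, and it shares its promoter region with the divergent gene Zwilch. Rps26, a small-subunit protein at the exit of the mRNA channel, had 1.47 and 2.75. Rps19bp1 had 1.23 and 3.45. Rpl7l1, a nucleolar relative of Rpl7, had 1.27 and 4.49. The canonical members named here were thus below the median promoter in both libraries, while Rpl7l1 was below it in replicate 1 only.

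**Figure D2:**
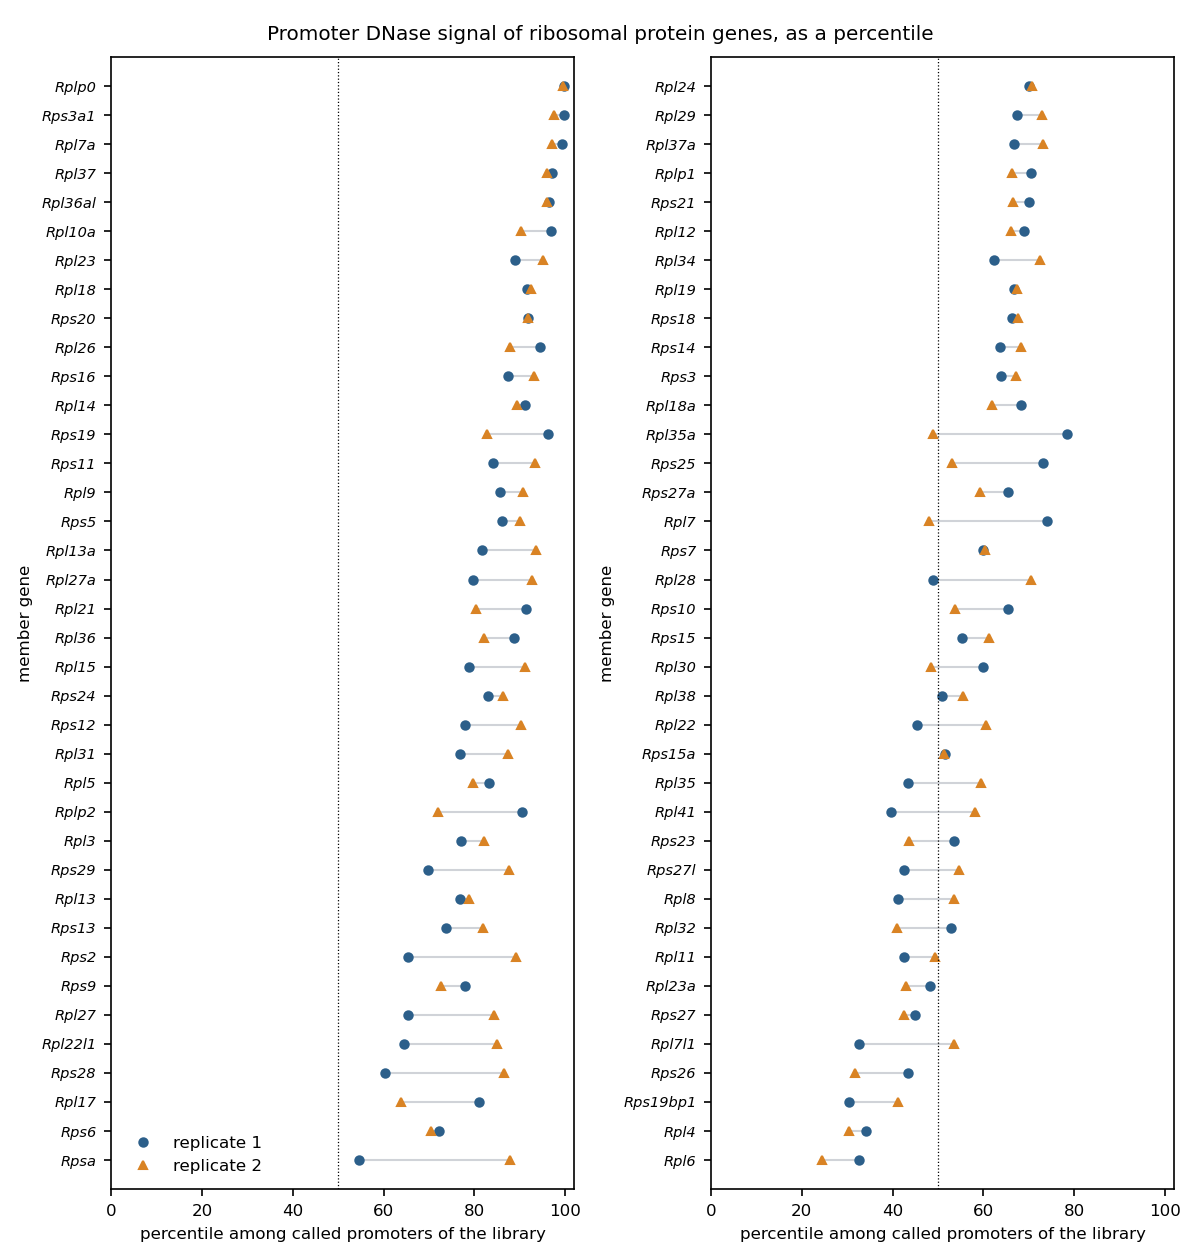
Percentile of the promoter signal value among called promoters (0 to 100, horizontal) for 76 of the 78 called members, ordered by the mean of replicate 1 (circles) and replicate 2 (triangles), with the median promoter dotted. The members run from Rplp0 at 99.8 and 99.5 to Rpl6 at 32.6 and 24.3, and Rpsa shows the widest gap between the libraries, 54.6 and 87.8.

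The percentile of a member differed between the libraries by a median of 6.61 points, against 7.18 points for all called genes, so neighbours in the order of members were not separated by more than this spread. The widest gap was 33.2 points, at Rpsa, the small-subunit protein also known as the laminin receptor, with 1.69 (percentile 54.6) in replicate 1 and 8.88 (percentile 87.8) in replicate 2. Rpl35a, a large-subunit protein, went the other way, with percentiles of 78.4 and 48.8. Across the 78 members Pearson's r between the libraries, on log2 signal, was 0.81, and across all called genes 0.91. These are correlations across genes, which are not independent replicates, and the narrower range of the members enters their value.

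The subunits had overlapping signal values. The 40 large-subunit genes had medians of 2.03 in replicate 1 and 6.43 in replicate 2, and the 30 small-subunit genes had medians of 1.94 and 6.31. Each group's range contained the median of the other in both libraries. The 3 stalk genes spread widely, with Rplp0 at the top of all members, Rplp2 at 2.62 and 6.36 and Rplp1 at 2.00 and 5.77.

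Members with known roles outside the ribosome or in disease lay throughout the order. Rps19, the gene most often mutated in human Diamond-Blackfan anaemia, had 3.07 and 7.92, and Rpl13a, known in human cells for release from the ribosome to silence inflammatory mRNAs, had 2.28 and 10.4. Rpl5 had 2.33 and 7.37 and Rpl11 had 1.45 and 4.13, although their proteins act together, binding Mdm2 when ribosome assembly is disturbed. Rpl11 was thus below the median promoter in both libraries (percentiles 42.6 and 49.3), and Rpl5 above it (83.1 and 79.6). Rps6, the substrate of the S6 kinases, had 2.04 and 6.20. Rps14, the gene linked to the anaemia of the human 5q deletion syndrome, had 1.85 and 5.95. Rps27a, translated as a fusion with ubiquitin, had 1.89 and 5.04, and Rpl41, the smallest ribosomal protein, had 1.40 and 4.92. Of these 8 genes, Rpl11 alone was below the median promoter in both libraries.

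The called paralogs differed from their parents in no single direction. Rpl22l1 had signal values of 1.87 and 8.31, against 1.50 and 5.16 for Rpl22, higher in both libraries. Rps27l had 1.45 and 4.58, against 1.49 and 3.54 for Rps27, lower in replicate 1 and higher in replicate 2. Rpl7l1 had 1.27 and 4.49, against 2.08 and 4.03 for Rpl7, again with opposite order in the libraries. The X-linked parent of Rpl36al falls outside the autosomal rule. Their reference sequences over the same 140 bases are shown for comparison with the promoters above, with capitals again for shared footprints.
Rpl22l1 (chr3:28805316-28805455, plus strand): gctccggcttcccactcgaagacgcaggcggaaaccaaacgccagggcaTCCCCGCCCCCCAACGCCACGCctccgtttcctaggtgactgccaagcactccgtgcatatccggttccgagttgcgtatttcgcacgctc
Rps27l (chr9:66945966-66946105, plus strand): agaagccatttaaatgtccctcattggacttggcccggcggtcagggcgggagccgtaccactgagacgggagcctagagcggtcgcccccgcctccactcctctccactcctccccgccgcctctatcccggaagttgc
Rpl7l1 (chr17:46782637-46782776, minus strand): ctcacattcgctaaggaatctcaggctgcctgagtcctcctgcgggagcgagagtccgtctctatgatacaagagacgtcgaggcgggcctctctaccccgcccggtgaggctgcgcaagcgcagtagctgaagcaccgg
Rpl22l1 had a shared footprint of 22 bp in this window, over a GC-rich stretch that holds a GGGCGGG match on the opposite strand. Rps27l and Rpl7l1 had none here.

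The calls at ribosomal protein genes lay mostly on the start itself. The strongest call covered the TSS of the representative transcript in 63 of 78 members (80.8%) in each library, against 64.9% of all called genes in replicate 1 and 66% in replicate 2. With any promoter call counted it was 66 members (84.6%) in each, against 70.9% and 73.4%. The median width of the strongest call was 380 bp in members and 342 bp in all called genes in replicate 1, and 240 bp and 260 bp in replicate 2, so the order of the widths was opposite in the libraries. A single call served the promoter in 50 of 78 members in replicate 1 (64.1%, against 54.6% of all called genes) and in 58 in replicate 2 (74.4%, against 54.8%). The deposited false discovery rates describe the same promoters base by base. At the TSS 94.9% of members had a rate under 0.001 in replicate 1, against 82.0% of other called genes, and 98.7% in replicate 2, against 87.7%. The highest shares were 97.4% against 82.1% in replicate 1 and 98.7% against 87.8% in replicate 2. They lay at different points. In replicate 1 members first reached theirs 165 bp downstream and other genes 13 bp upstream. In replicate 2 it was 33 bp upstream in members and 33 bp downstream in other genes. The stretch over which the share stayed above 50% of the group's own highest value was 728 bp long in members, against 763 bp in other genes, in replicate 1. In replicate 2 it was 810 bp against 854 bp. The members' highest value was larger, so their limit was higher and these lengths do not show a narrower stretch in members. At Rplp0 the smallest rate had a −log10 of 40.6 in replicate 1 and 87.6 in replicate 2, 92 and 90 bp upstream of the TSS. At Rpl6 it was 11.2 and 17.6, 190 and 152 bp downstream. The smallest rate of each called member ranged from 6.06 to 134 on the −log10 scale in replicate 1 and from 9.98 to 131 in replicate 2.

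**Figure D3:**
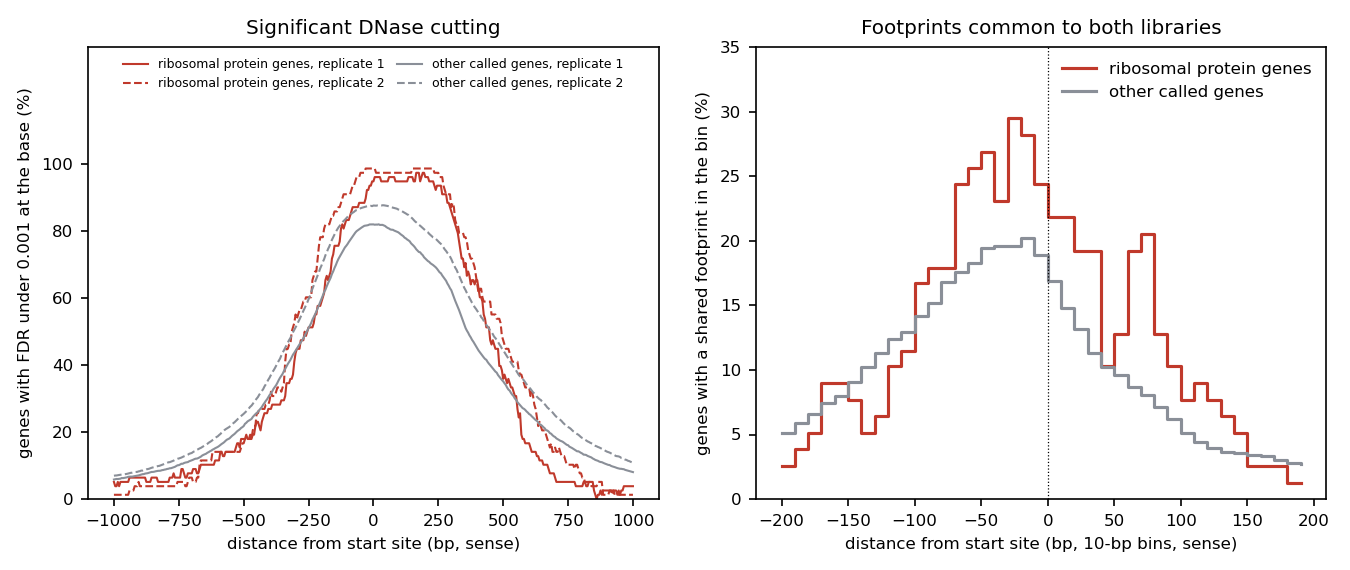
Left, share of genes (percent) with a false discovery rate of cutting under 0.001 at each distance from the TSS (bp), for the 78 called members (red) and other called genes (grey) in replicate 1 (solid) and replicate 2 (dashed); members reach 97.4% and 98.7%, other genes 82.1% and 87.8%. Right, share of genes with a footprint common to both libraries in each bin of 10 bp, where members rise to 29.5% just upstream of the TSS and again to 20.5% between 71 and 80 bp downstream, where other genes are at 8.03%.

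Footprints were found at every called promoter of the group. Each of the 78 members had at least 1 footprint in each library, but so did 96.8% of all called genes in replicate 1 and 99.2% in replicate 2, so this is near the background. The medians were 5 in both libraries, against 4 in replicate 1 and 6 in replicate 2 at all called genes. The members' calls held 1.02 footprints per 100 bp in replicate 1 and 1.59 in replicate 2, against 0.829 and 1.28 at all called genes. A footprint common to both libraries, with an overlap of 1 bp or more, was present in 71 of 78 members (91.0%), against 86.9% of all called genes, a share near the background. Nearer to the start the shares parted. A common footprint centred within 150 bp of the TSS was present in 64 of 78 members (82.1%), against 63.9% of all called genes. Footprints were counted only inside calls, and the members' calls covered the TSS more often. That was 84.6% in each library, against 70.9% of all called genes in replicate 1 and 73.4% in replicate 2. How far this enters the difference was not tested. All 30 small-subunit genes and all 3 stalk genes had a common footprint somewhere in the promoter, and 34 of 40 large-subunit genes did.

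The members' common footprints merged into 163 stretches with a median width of 19 bp. Of these, 87 lay upstream of the TSS, 12 spanned it, 45 lay within the first exon, 6 spanned its end and 13 lay beyond it. A common footprint touched the window from 80 to 11 bp upstream in 42 of 78 members (53.8%), against 43.2% of other called genes. From 10 bp upstream to 40 bp downstream it was 34 members (43.6%, against 32.5%), and from 51 to 90 bp downstream 23 members (29.5%, against 16.7%). Farther out, from 200 to 111 bp upstream, the order was opposite, with 15 members (19.2%, against 24.5%). In each library taken alone, the zone from 51 to 90 bp downstream had 43.6% of members against 27.0% in replicate 1 and 60.3% against 39.4% in replicate 2. Each common footprint is also a footprint of both libraries, so these shares are not independent of the common ones. The limits of these windows were not among the planned settings. The coverage by calls was not matched between members and other genes in any of these windows. All these positions refer to 1 GENCODE start per gene. The nearest RefSeq start was a median of 24 bp away in 62 members and 12 bp away in 15679 autosomal genes. Footprint positions were not recounted from RefSeq starts, so the narrow windows are uncertain to that extent. The first exons of the members are short, with a median of 95.5 bases and quartiles of 63 and 181.5, against 231 bases in all called genes. How many of these exons end in the zone from 51 to 90 bp downstream was not counted.

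The members with the most common footprints, counted in replicate 1, were Rps19 and Rpl7 with 7 each and Rps18 and Rpl29 with 6 each. The annotated start of Rps19 used here lies 221 bp upstream of the RefSeq start, and its footprints spread from 388 bp upstream to 299 bp downstream. Rpl7 had footprints from 774 bp upstream to 260 bp downstream. Its strongest call, of 560 bp in replicate 1 and 380 bp in replicate 2, is shorter than this stretch. Footprints inside any promoter call were counted. Rps18, a small-subunit protein at the subunit interface, shares its promoter with the divergent gene Vps52, and its footprints all lay upstream of its TSS. Rpl29, a large-subunit protein, had 3 merged stretches between 163 bp upstream and 35 bp downstream.

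Some footprints held exact matches to known consensus sequences, and examples are printed here whole. Others, such as those of Rpl7, Rpl29, Rps25, Rplp0 and Rps28, are not shown. Capitals mark the match, first to the cyclic AMP response element TGACGTCA, then to the NRF1 consensus GCGCATGCG, to the ETS consensus CCGGAAG and to the TATA box TATAAA. Both strands were searched except for the TATA box, and at Rpl37a and Rpl10a overlapping matches on the opposite strands make 1 capital run.
Rps9 (chr7:3703976-3704000, plus strand): gtgcgtgaTGACGTCActacaaggc
Rpl13 (chr8:123102312-123102340, plus strand): cgggcgggttcgcgTGACGTCActtccct
Rpl37a (chr1:72711261-72711281, plus strand): aaaaccGCGCATGCGCattgc
Rpl10a (chr17:28328539-28328575, plus strand): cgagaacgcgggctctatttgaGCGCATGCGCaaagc
Rpl11 (chr4:136053379-136053404, minus strand): cccataaggccacggggCCGGAAGtc
Rpl15 (chr14:18271132-18271143, minus strand): CCGGAAGcggcg
Rps2 (chr17:24720073-24720103, plus strand): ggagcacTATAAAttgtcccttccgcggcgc
The Rps2 footprint reached from 37 to 7 bp upstream of the GENCODE start, where a TATA box stands in promoters that have one. The RefSeq start of Rps2 lies 47 bp upstream of the GENCODE start, so the footprint lies downstream of the RefSeq start. The placement of this match thus depends on the annotation. Among all members only Rps2 (1.22%) had TATAAA starting 40 to 20 bp upstream of the GENCODE start. The shares were 2.5% of all autosomal genes and 0.895% of called genes. The Rps9 footprint spanned the TSS from 17 bp upstream to 8 bp downstream, and the Rpl13 footprint lay from 38 to 10 bp upstream.

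Near the TSS the ETS consensus was more frequent in members than in other promoters. Between 150 bp upstream and 50 bp downstream, CCGGAAG on either strand was present in 28 of 82 members (34.1%), against 9.95% of all autosomal genes and 15.5% of genes with a call in both libraries. In 20 of the 28 members a match lay within 50 bp of the TSS. A match anywhere inside a common footprint of the promoter was found in 4 of 78 members (5.13%, against 3.58% of called genes), namely Rpl11, Rpl15, Rpl29 and Rps25, the last in a footprint beyond that window. The SP/KLF consensus GGGCGGG was the commonest match in members, with 33 of 82 (40.2%), but it was as common in called genes at large (43.8%). It was also the match most often inside common footprints anywhere in the promoter, in 17 of 78 members (21.8%, against 23.7% of called genes), among them Rpl36al. The NFY consensus CCAAT was present in 21 members (25.6%), against 29.6% of all genes and 30.5% of called genes. The other consensus sequences were rare. The YY1 consensus AANATGGCG was in 6 members (7.32%, against 2.72% of all genes and 4.48% of called genes) and TGACGTCA in 5 (6.1%, against 2.21% and 3.35%). The other shares depended on what they were set against. GCGCATGCG was in 2 members (2.44%), above the 1.95% of all genes and below the 3.22% of called genes. TATAAA was in 4 (4.88%), below the 6.37% of all genes and above the 2.71% of called genes, and with RefSeq starts in place of GENCODE starts it was in 4 of 62 (6.45%, against 6.07% of all genes). The E-box CACGTG was in 6 (7.32%), against 5.94% of all genes and 7.71% of called genes, and with RefSeq starts in 1 of 62 (1.61%, against 6.18%). The ZNF143 consensus ACTACAA was in 8 members (9.76%, against 2.77% and 3.3%), but with RefSeq starts in 2 of 62 (3.23%, against 2.93%). A match is a description of the reference sequence and does not show that the factor binds.

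**Figure D4:**
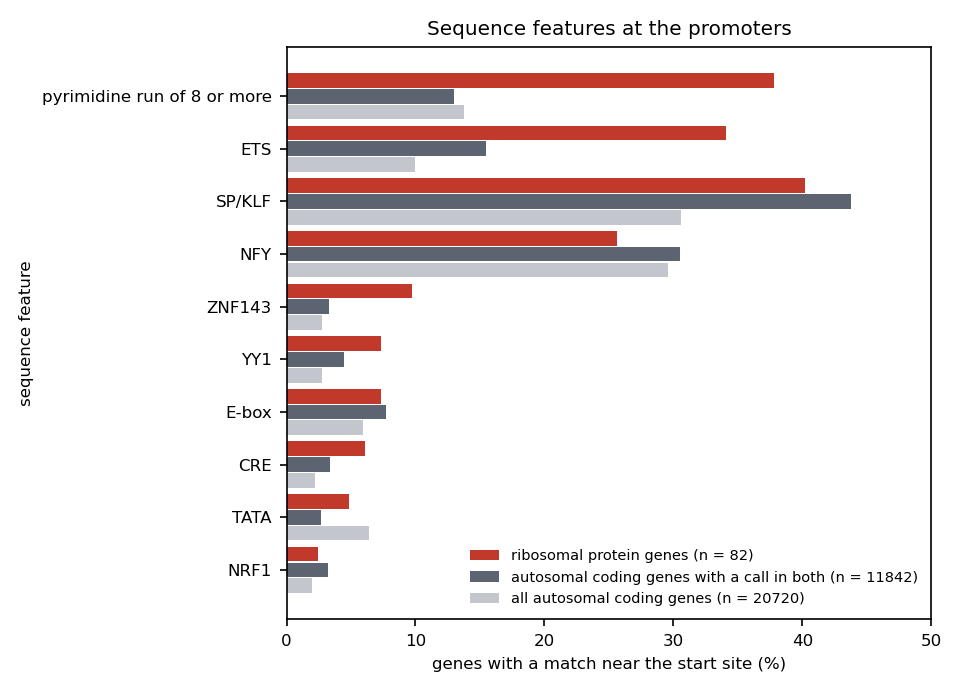
Share of genes (percent, horizontal) with each sequence feature near the TSS, for the 82 members (red), for 11842 genes with a call in both libraries (dark grey) and for all 20720 autosomal coding genes (light grey). A pyrimidine run (37.8% against 13.0% and 13.8%) and the ETS consensus (34.1% against 15.5% and 9.95%) show the widest differences.

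A pyrimidine run at the start was a common feature of the members. An unbroken run of at least 8 C or T that touched the 10 bp on either side of the TSS was present in 31 of 82 members (37.8%), against 13.8% of all autosomal genes and 13.0% of called genes. The first transcribed base was C in 26 members (31.7%), against 17.5% of all genes. Of the longest runs among called members, 5 are shown from 20 bases before to 20 bases after the TSS, with the run in capitals.
Rpl34 (chr3:130730318-130730357, minus strand): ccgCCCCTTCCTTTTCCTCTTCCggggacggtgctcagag
Rps2 (chr17:24720090-24720129, plus strand): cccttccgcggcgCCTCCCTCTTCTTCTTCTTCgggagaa
Rps24 (chr14:24490698-24490737, plus strand): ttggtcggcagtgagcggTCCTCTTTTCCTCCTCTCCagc
Rpl29 (chr9:106429519-106429558, plus strand): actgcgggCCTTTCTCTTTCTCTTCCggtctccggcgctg
Rpl22 (chr4:152325833-152325872, plus strand): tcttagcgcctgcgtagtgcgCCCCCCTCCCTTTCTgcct
The runs were 20 bases long at Rpl34 and Rps2, 19 at Rps24, 18 at Rpl29 and 15 at Rpl22. Annotated starts bear on this count, because the GENCODE and RefSeq starts were the same base in 15 of the 62 members with an entry in both and differed by more than 100 bp in 10. With the RefSeq starts, 26 of 62 members (41.9%) had such a run, against 13.7% of 15679 genes. Of the examples shown, only Rpl34 had the same start in both annotations. The RefSeq start lay 47 bp upstream of the GENCODE start at Rps2, 127 bp upstream at Rpl22 and 35 bp downstream at Rps24. Rpl29 had no RefSeq start to compare. At Rpl22 the run begins just after the GENCODE start base. The signal at members with a run (medians 1.90 and 6.41, n = 31) and without one (2.07 and 6.36, n = 47 called) differed in opposite directions in the libraries.

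Host genes of snoRNAs were frequent among the members. An annotated snoRNA lay within 28 of the 78 called members (35.9%), 56 snoRNAs in all, against 1.91% of all called genes. The promoters of the 28 hosts had median signal values of 2.16 and 7.60, against 1.91 and 6.07 for the 50 called members that host none, with overlapping ranges in both libraries. A divergent coding gene started within 1 kb of 12 called members (15.4%), against 13.4% of called genes, and included Med22 at Rpl7a, Mgat2 at Rpl36al, Ndufa7 at Rps28, Rab13 at Rps27 and Lias at Rpl9. With coding genes in other orientations and divergent long non-coding RNAs, 20 called members had another start within 1 kb, and there a call cannot be assigned to the member alone. The 12 with a divergent coding gene had medians of 2.07 and 7.25, against 1.98 and 6.39 for the other 66.

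Distal sites lay nearest to members about as often as to other genes. In 27 of 82 members (32.9%) an annotated TSS was the nearest coding TSS to at least 1 distal site called in both libraries, against 30.9% of all autosomal genes, and there were 51 such sites. The most lay nearest Rps24, a small-subunit protein, with 8, followed by Rpl14 with 6 and by Rpl38, known in mice for its part in Hox mRNA translation, and Rplp1 with 4 each. The closest of the 8 sites was centred 9992.5 bp from the representative TSS of Rps24, with signal values of 1.77 and 3.82, below the gene's promoter at 2.33 and 8.57. The nearest gene need not be the one a distal site acts on.

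Other genes of ribosome production and translation were open as well, at various strengths, and the gene named for each list has its highest mean percentile over the libraries. For scale, 57.2% of all autosomal genes were called in both libraries, and 91.1% of those with CpG ratios of 0.6 or more. The medians over all called genes were 1.61 and 4.47. The assembly, polymerase I and mTOR lists had medians below the members' in both libraries. All 78 autosomal mitochondrial ribosomal protein genes had a promoter call in both libraries, with medians of 1.74 and 4.88 that lay below the members' 1.98 and 6.39. All 15 translation factors and related genes with oligopyrimidine mRNAs were called, with medians of 2.10 and 8.31, above the members' in both libraries. Pabpc1, the poly(A)-binding protein, was at 3.60 and 15.5. All 14 other initiation factors were called, with medians of 2.06 and 7.67 that also lay above the members'. The helicase Eif4a1 was at 3.22 and 14.2, while Eif5 was higher in replicate 1 (3.34) and Eif1 in replicate 2 (14.3). All 21 ribosome assembly factors were called (1.53 and 5.70), with Nop56, a core protein of snoRNA particles, at 3.40 and 13.9. All 11 genes of RNA polymerase I and its factors were called (1.60 and 4.43), with the shared subunit Polr1d at 2.53 and 9.33. All 11 genes listed for mTOR signalling and the control of oligopyrimidine mRNAs were called too (1.70 and 6.32). Among them Rps6kb1, an S6 kinase, was at 2.34 and 8.49, below Rheb (9.64) and Rptor (8.97) in replicate 2. Fau, which encodes a ribosomal protein fused to a relative of ubiquitin, and Rack1, a small-subunit protein, do not carry the name of the family. Fau had 2.33 and 10.8, and Rack1 had 1.69 and 3.61. Of 10 listed promoter factors 9 were called, with Yy1 at 2.74 and 12.2, below Sp3 (2.81) in replicate 1, and the exception was Trf, which in mouse is the symbol of transferrin.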

How the data were processed

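DNase-seq of 2 libraries was used. Per the file headers, the authors deposited in mm10, separately for each library, hypersensitive-site calls with a signal value of unstated scaling, footprints that all carry 0.01, and false discovery rates of cutting, taken as q-values (p-value scale), listed under 0.05. No aligner or caller is named in the sources used here. The stricter list of each library was used. Starts came from GENCODE M21 basic transcripts. A promoter call lay within 1 kb of any start, and the strongest call gave the signal value. At Rpl18 the strongest call of replicate 2 lay at an alternative start. Distances refer to 1 representative start. Percentiles are among genes called in the same library. Sequences are RefSeq's GRCm38.p6. A CpG ratio used 500 bp either side. Counting was tested on simulated data. Python 3.11.15 was used with pandas 2.3.3, numpy 2.4.6, scipy 1.17.1, pysam 0.24.0 and matplotlib 3.10.9. No test was made, since there is 1 group and the members and lists were chosen with earlier results of these data known. Named genes were the 6 highest and 6 lowest by mean percentile, members without a call, 12 fixed members, paralogs, those with most common footprints or distal sites, and the highest of each pathway list. A few others, such as parents of paralogs and Rpl35a, were named after their values were seen. Some genes that this rule names are not reported here. Alternatives were other windows, lists, overlaps, starts and run lengths, and each library alone.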

Additional observations from a re-analysis of the deposited data

How the results depend on the processing

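The count of 78 members with a promoter call in both libraries was 77 where the calls of the libraries had to overlap (Rpl30 was lost) and 63 where they had to overlap by 50% of both lengths, against 46.1% of all genes. It was 78 under the other window, list and start settings and without either library, and 73 of 73 for canonical members. The members' median signal values stayed between 1.97 and 1.98 in replicate 1 and between 6.39 and 6.41 in replicate 2. A footprint common to both libraries was present in 71 of 78 called members (91.0%, against 86.9% of called genes). With an overlap of 50% of both lengths it was 61 (78.2%, against 72.3%). Centred within 150 bp of the TSS it was 64 (82.1%, against 63.9%). A footprint in 1 library taken alone was present in all 78, against 96.8% of called genes in replicate 1 and 99.2% in replicate 2. Of all alternatives 50 left a count within 1.5 times its value, or a median within its 95% interval, and 3 did not. That interval, too, treats the members as independent draws and serves here only as a yardstick. The 3 were the E-box, in 10 members with a window from 250 bp upstream and in 1 of 62 with RefSeq starts, against 6 of 82, and the ZNF143 consensus, in 2 of 62 with RefSeq starts, against 8 of 82. RefSeq starts cover fewer members, and the cause was not otherwise tested. Counts with RefSeq starts are of 62 members, so shares can move more, as for the YY1 consensus (11.3%, against 7.32%) and the NRF1 consensus (4.84%, against 2.44%). A pyrimidine run of at least 6 was present in 39 members (47.6%, against 29.7% of all genes). A run of at least 10 was present in 21 (25.6%, against 7.05%). No paired analysis was possible because there is 1 group. Depth is not stated, so the limit of detection at the 4 uncalled members is unknown.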

Other observations

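The 4 X-linked genes of the family fall outside the autosomal rule and were all called in both libraries. Their signal values were 1.56 and 4.19 at Rpl36a, 1.04 and 2.77 at Rps4x, 1.01 and 2.66 at Rpl39 and 0.813 and 3.42 at Rpl10. The first value is replicate 1 and the second replicate 2. In replicate 1, 3 of the 4 were below the lowest called autosomal member (1.23). In replicate 2 all 4 were above the lowest called autosomal member (2.20). No other X-linked genes were set beside them.

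Annotated ribosomal protein pseudogenes were read as well, which was chosen after the data had been seen. Of 259 on autosomes, 4 (1.54%) had a call within 1 kb of their start in both libraries. With those within 2 kb of a coding start left out, 3 of 255 (1.18%) did, Rpl38-ps1 at 2.09 and 4.95, Rpl5-ps2 at 1.07 and 1.47 and Rpl34-ps1 at 0.855 and 1.39. In replicate 1 alone 13 of the 259 had a call, and in replicate 2 alone 5.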
